A study of Rattus norvegicus with 42 samples.

Results

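The question asked of rat retina was whether nanoceria, particles of cerium oxide that scavenge reactive oxygen, change how the tissue responds to damaging light. It was put to every gene as an interaction: the change with light after nanoceria minus the change with light after vehicle. A value of 0 means that light moved a gene equally in both, on the log2 scale used for all changes here. Of the 42 labelled samples, 31 had counts, and 19 of these belong to the 4 injected groups. They are 5 libraries of nanoceria plus light, 4 of nanoceria, 5 of vehicle plus light and 5 of vehicle. Nanoceria (1 mM) or vehicle was injected into the vitreous of the eye, and light was 15000 lux for 24 h. Beside them stand 7 light damage libraries, with that light and no injection, and 5 control libraries of untreated rats. All were adult rats on a daily cycle of light and dark, and the libraries are labelled as biological replicates. Not given in the sources used here are strain, sex, and the times between injection, light and dissection. Each light change sets injected eyes against injected eyes, so the injection itself is on both sides of it.

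Strong light keeps the visual pigments bleached, and it kills rods, the photoreceptors of dim light, partly through oxidation of their lipid-rich outer segments. Around the dying rods, Müller glia turn on stress and repair genes, while microglia and blood-derived phagocytes gather and clear debris. Cerium oxide switches between oxidation states of cerium at its surface and can thereby remove superoxide and hydrogen peroxide, which is why it has been given to light-damaged retina. RNA here comes from whole retina, so more cells of a type and more RNA per cell cannot be told apart.

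Total counts in the 19 libraries lay between 73369026 and 182162368. As a check of the tissue, the rod list summed to 25537 to 45776 CPM (counts scaled to libraries of equal size) in nanoceria, vehicle and control. Lens transcripts, which a dissection can carry over, made up 0.0559% to 3.45% of the counts of an injected library, highest in vehicle 1. Transcripts of the Y chromosome were high in 3 of 5 nanoceria plus light, 2 of 4 nanoceria, 2 of 5 vehicle plus light and 1 of 5 vehicle libraries, so sex was unevenly spread. Vehicle 4 and vehicle 7 were nearly the same library: in the median gene, the squared difference of their counts was 2.66 times that of sampling noise. This ratio was 4.33 for light damage 4 and 7, and at least 15.4 for any other pair of the same group. Pairs from different groups were not compared in this way. Both near-identical pairs were kept as separate libraries, since they differed beyond sampling noise, and each pair was summed in an alternative. That difference does not show that a pair comes from 2 retinas. Their origin was not tested.

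No gene passed in the interaction. By edgeR's quasi-likelihood test, 0 of 18094 genes were called (0%) at a Benjamini-Hochberg adjusted p under 0.05, and the smallest adjusted p was 0.99999. An unadjusted p under 0.05 was reached by 415 genes (2.29%), 116 with a positive (0.641%) and 299 with a negative interaction (1.65%). That is fewer than the 905 genes that make up 5% of those tested. With the Wald test of DESeq2, 484 genes had an unadjusted p under 0.05 and 1 was called, LOC691162, a low gene with a log2 interaction of 16.1 there and 2.27 in edgeR. With limma-voom 0 were called. The size of what could have been seen differs by gene. The standard error (SE) of the interaction had a median of 0.21, and for 13155 genes (72.7%) the 95% interval lay within 1 on either side of 0, which excludes for those genes a light change that differs more than 2-fold between nanoceria and vehicle.

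The response to light itself was large in both arms, which share no library. After nanoceria 1474 genes rose (8.15%) and 1046 fell (5.78%), 13.9% in all. After vehicle 1749 rose (9.67%) and 1297 fell (7.17%), 16.8% in all. Of the genes that rose, 1142 were shared, 77.5% of those after nanoceria and 65.3% of those after vehicle, and 778 of those that fell, 74.4% of those after nanoceria and 59.98% of those after vehicle. None was called in opposite directions. A call in 1 arm alone is no test of a difference between the arms. Of 600 genes called after nanoceria alone, 568 had the same sign after vehicle and 74 had an unadjusted interaction p under 0.05 (2.29% of all genes). Of 1126 called after vehicle alone these numbers were 1078 and 110. Such genes were chosen on the libraries that make up the interaction, so these numbers test nothing. The counts lean on scaling. With the size factors of DESeq2 in place of TMM, 1115 genes rose and 1306 fell after nanoceria, and with library size alone 2434 rose and 688 fell after vehicle.

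**Figure D1:**
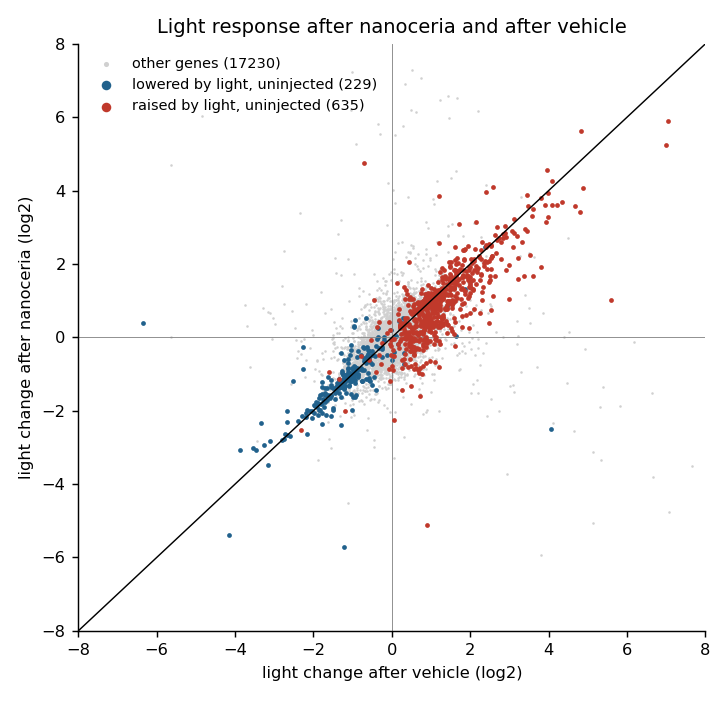
Each point is 1 of 18094 genes, with its change with light after vehicle on the x axis and after nanoceria on the y axis (log2, edgeR), and the line marks equal changes. The 635 genes raised and 229 lowered by light in uninjected retina follow the line, with most raised genes just under it, and 3 genes lie beyond the axes.

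Genes that define light damage can be chosen without the 4 injected groups, from light damage against control, where 2147 genes rose (11.9%) and 1927 fell (10.6%), 22.5% in all. At 2-fold or more, 635 of them rose and 229 fell with light in uninjected eyes. The 635 raised genes had a median light change of 0.88 after nanoceria and 1.12 after vehicle, against 1.60 without injection. Their median interaction was -0.28, with quartiles of -0.65 and 0.04 and a median of -0.17 without vehicle plus light 2, where all genes had a median of 0.02. The light change was smaller after nanoceria for 415 of the 635 (65.4%), against 49.5% of all genes. An unadjusted interaction p under 0.05 was reached by 62 of the 635 in the lower and 4 in the higher direction (1.65% and 0.641% of all genes). The raised genes had a median difference of -0.05 between nanoceria plus light and vehicle plus light, and of 0.23 between nanoceria and vehicle. The 229 lowered genes had a median light change of -1.17 after nanoceria, -1.17 after vehicle and -1.35 without injection, and a median interaction of 0.02.

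A light score per library, the mean log2 CPM of the raised genes minus that of the lowered genes, gives a value for every retina. It was -0.67, -0.96, -0.26, 0.34 and -0.82 in the nanoceria plus light libraries and -2.45, -2.68, -2.41 and -2.72 in the nanoceria libraries. It was -0.05, 0.03, -1.08, -0.18 and -0.99 in the vehicle plus light libraries and -2.75, -2.77, -2.89, -2.92 and -2.89 in the vehicle libraries. The light-exposed groups overlapped in part, while all 4 nanoceria libraries scored above all 5 vehicle libraries. Light moved the score by 2.09 after nanoceria and by 2.39 after vehicle, a difference of -0.30. Nanoceria minus vehicle was -0.02 under light and 0.28 without light. The SD was 0.53 in nanoceria plus light, 0.54 in vehicle plus light, 0.16 in nanoceria and 0.08 in vehicle. Pooled within groups it was 0.40, which is a spread of libraries and not the error of the difference. Single libraries moved the difference of -0.30: it was -0.50 without nanoceria plus light 4, -0.45 without vehicle plus light 3, -0.20 without vehicle plus light 1, and -0.18 without nanoceria plus light 2 or vehicle plus light 2. With genes chosen by adjusted p alone it was -0.16.

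**Figure D2:**
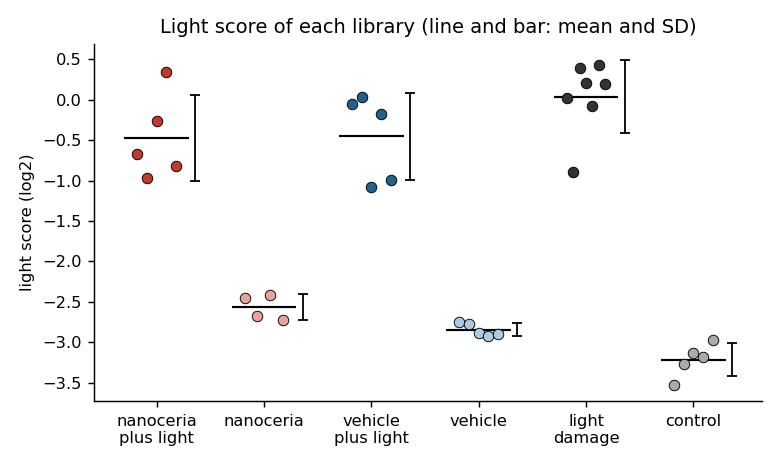
Light score of each library (log2, y axis) in the 6 groups, with the mean as a line and the SD as a bar. Nanoceria plus light and vehicle plus light overlap, from -0.96 to 0.34 and from -1.08 to 0.03, and the nanoceria libraries lie just above the vehicle libraries.

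Rod genes fell with light after nanoceria and after vehicle. Of 29 tested genes of rod phototransduction, 24 fell in each arm (5.78% of all genes fell after nanoceria and 7.17% after vehicle), and 0 had an unadjusted interaction p under 0.05. Their median light change was -1.25 after nanoceria and -1.21 after vehicle. Rod transducin, Gnat1, a G protein that passes on the light signal, fell to 303 to 2360.0 CPM in nanoceria plus light, against 8410.0 to 14765 in nanoceria, and to 493 to 1538 CPM in vehicle plus light, against 10150.0 to 13733 in vehicle. Its light change was -3.01 ± 0.44 after nanoceria and -3.55 ± 0.44 after vehicle, with an interaction of 0.54 ± 0.58 (SE; 95% interval -0.64 to 1.72). In both arms every light-exposed library was below every library without light, and the 2 light-exposed groups overlapped. The lowest rod sum of all was in nanoceria plus light 4, at 5754 CPM, and the median interaction of the rod list was 0.21 without that library, 0.20 without vehicle plus light 6 and -0.17 without nanoceria plus light 5. The cone opsin Opn1sw fell after vehicle (-1.21 ± 0.38, adjusted p = 0.0274) and did not pass after nanoceria (-0.81 ± 0.40, adjusted p = 0.193), with an interaction of 0.39 ± 0.55. Of 14 cone genes, 1 rose and 4 fell after nanoceria (8.15% and 5.78% of all genes), and 2 rose and 7 fell after vehicle (9.67% and 7.17%).

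The stress and signalling genes that light damage is known for rose in both arms. Edn2, an endothelin made by stressed photoreceptors, changed by 2.91 ± 0.44 after nanoceria and 3.45 ± 0.42 after vehicle, with an interaction of -0.54 ± 0.56 that was -0.12 without nanoceria 5. Lif, a cytokine that protects photoreceptors, changed by 4.26 ± 0.51 and 4.09 ± 0.46, and Socs3, which damps cytokine signalling, by 3.597 ± 0.28 and 4.08 ± 0.27, in the same order. The stress factor Atf3 stood at 132, 115, 146, 161 and 192 CPM in nanoceria plus light and 11.9, 6.76, 11.9 and 10.03 in nanoceria, and at 191, 159, 121, 192 and 112 in vehicle plus light and 18.7, 10.5, 16.8, 12.3 and 12.1 in vehicle. Its groups with and without light did not overlap in either arm, and its interaction was 0.42 ± 0.37. Fgf2, a growth factor of retinal neurons and glia, stood at 8.35, 9.34, 8.05, 8.24 and 9.54 CPM in nanoceria plus light, 3.17, 1.73, 2.199 and 2.56 in nanoceria, 8.998, 7.26, 6.08, 6.41 and 6.497 in vehicle plus light and 2.43, 1.95, 1.27, 1.798 and 1.603 in vehicle. It rose by 1.85 ± 0.19 after nanoceria and by 1.96 ± 0.17 after vehicle, and its interaction of -0.11 ± 0.25 had an interval of -0.61 to 0.39. The transcription factor Stat3 rose by 1.54 ± 0.14 and 1.67 ± 0.13, with an interaction of -0.13 ± 0.19 and an interval of -0.52 to 0.26, the narrowest of the 15 light damage genes chosen by name.

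Antioxidant genes deal with the oxidants that nanoceria are given to remove, and none of them was called in the interaction. Their RNA is no measure of the oxidants themselves. Hmox1, heme oxygenase, stood at 30.1, 43.8, 147, 141 and 57.2 CPM in nanoceria plus light, 11.7, 10.5, 13.5 and 14.2 in nanoceria, 121, 131, 51.7, 84.98 and 46.2 in vehicle plus light and 14.3, 10.5, 12.7, 10.5 and 10.2 in vehicle. Light raised it by 2.75 ± 0.41 after nanoceria and by 2.904 ± 0.38 after vehicle, with an interaction of -0.16 ± 0.51. Mitochondrial superoxide dismutase, Sod2, which removes the superoxide that nanoceria also remove, rose to 182 to 336 CPM in nanoceria plus light, against 106 to 116 in nanoceria, and to 193 to 314 CPM in vehicle plus light, against 107 to 133 in vehicle. Its interaction was 0.02 ± 0.22, with an interval of -0.42 to 0.47 that excludes a 2-fold difference of the light change. The metal-binding protein Mt2A rose by 3.22 ± 0.35 and 3.11 ± 0.32, with an interaction of 0.11 ± 0.43. Of 33 antioxidant and NRF2 target genes, 5 rose after nanoceria (8.15% of all genes) and 6 after vehicle (9.67%), none fell, and 0 had an unadjusted interaction p under 0.05 in edgeR, where 2.29% of all genes did. In DESeq2 the number was also 0. Their median interaction was 0.03 with TMM scaling and -0.02 with library size alone.

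The attractants Ccl2, Cxcl10 and Ccl7 had negative interactions with wide intervals. Ccl2, which draws monocytes, stood at 14.1, 18.997, 42.4, 64.2 and 43.3 CPM in nanoceria plus light, 2.53, 2.16, 1.92 and 2.11 in nanoceria, 69.2, 92.4, 18.3, 44.4 and 37.2 in vehicle plus light and 0.966, 1.67, 3.32, 1.42 and 1.58 in vehicle. It rose by 4.07 ± 0.46 after nanoceria and 4.88 ± 0.44 after vehicle, and the interaction was -0.81 ± 0.56, with an interval of -1.95 to 0.33. Cxcl10, which draws T cells, had an interaction of -0.64 ± 0.69 and Ccl7, another monocyte attractant, one of -1.38 ± 0.61 (unadjusted p = 0.0311, adjusted p = 0.99999). Single libraries moved all 3: Cxcl10 was -0.06 without vehicle plus light 6, and without vehicle plus light 2 Ccl2 was -0.51 and Ccl7 -0.87. Over the 26 tested chemokine and cytokine genes 11 rose and 1 fell after nanoceria (8.15% and 5.78% of all genes), and 12 rose and 0 fell after vehicle (9.67% and 7.17%). Their median interaction was -0.28, with -0.12 without nanoceria plus light 2, -0.14 without vehicle plus light 2, -0.15 without nanoceria 1, -0.17 without nanoceria plus light 5 and -0.42 without nanoceria plus light 4. Gfap, the intermediate filament of reactive Müller glia and astrocytes, stood at 288, 489, 265, 216 and 486 CPM in nanoceria plus light, 238, 127, 131 and 265 in nanoceria, 353, 402, 383, 325 and 285 in vehicle plus light and 346, 132, 81.3, 50.8 and 49.1 in vehicle, so that vehicle 1 reached the level of the light-exposed groups. Its interaction was -0.53 ± 0.73, with -1.28 without vehicle 1, -0.33 without vehicle 4 or nanoceria 5, -0.32 without vehicle 7, -0.32 with near-identical pairs summed and -1.73 with limma-voom. Of 23 glial reactivity genes 15 rose after nanoceria (8.15% of all genes) and 16 after vehicle (9.67%). Their median interaction was -0.30, with -0.13 without nanoceria 5, -0.18 without nanoceria plus light 1 and -0.19 without nanoceria 1 or vehicle plus light 2.

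**Figure D3:**
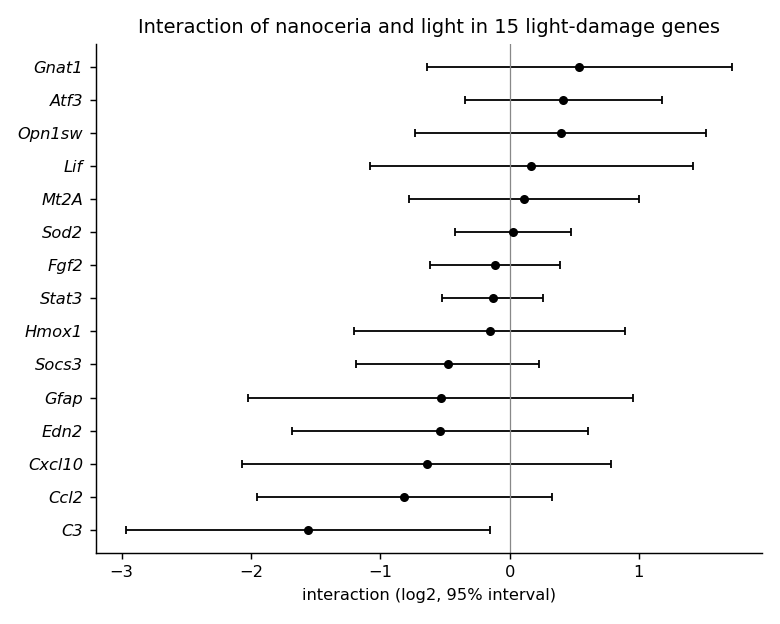
Interaction of nanoceria and light (log2, x axis) with its 95% interval from edgeR for 15 genes chosen by name, from the highest at the top to the lowest. All intervals but that of C3 include 0, and Stat3, Sod2 and Fgf2 have the narrowest.

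An interaction can come from any of the 4 groups. For each gene the larger of its light changes and the larger of its nanoceria differences were taken, and the group that both share was named as the one that carries the interaction, clearly so where each was at least 2 times its partner. Of the 415 genes with an unadjusted p under 0.05, vehicle carried 174 (97 clearly) and nanoceria 170 (86 clearly). Nanoceria plus light carried 34 (14 clearly) and vehicle plus light 37 (11 clearly). The difference between nanoceria and vehicle was thus larger without light than under light for 344 of the 415 (82.9%), against 62.4% of all genes tested. The mean of the vehicle group was the nearer to control for 325 of the 415 (78.3%), against 61.6% of all genes. The 415 genes were chosen on the same 4 groups, so these shares describe them and test nothing. Without nanoceria plus light 1, 623 genes had an unadjusted p under 0.05.

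Nanoceria and vehicle were also compared within each light condition. Between nanoceria plus light and vehicle plus light 0 genes were called in edgeR and in limma-voom (0%), 257 had an unadjusted p under 0.05 (1.42%), and DESeq2 called 4. These 4, Hsp90aa1, LOC100909505, NEWGENE_1304700 and Hprt1, had extreme log2 differences of -23.6 to -27.7 in DESeq2. In edgeR they were -9.02 to -12.9, so the calls rest on 1 tool. Between nanoceria and vehicle 0 were called in edgeR (0%) with 1021 at an unadjusted p under 0.05 (5.64%), 622 higher and 399 lower, and the smallest adjusted p was 0.133. DESeq2 called 40 genes there, some of them at extreme log2 differences such as -23.6 for LOC108348085 and -22.7 for Hprt1. Among the 40 were Chi3l1, Nog, Serpine3, Klhl6, Fyb, Abi3, Fam167b, Npas4, Nr4a1, Egr4, Cmtr2, Mad2l1bp and Bach2, which are described below. Vwf, Aif1, Ncf1, C3, Cd3e and Ednra were not among them. Limma-voom with quality weights called 1493, with weights of 4.83 for vehicle 4 and 3.30 for vehicle 7, and 0 once these near-identical libraries were summed. Against untreated retina the 2 injections differed in their counts: nanoceria had 313 genes called higher (1.73%) and 132 lower (0.73%) than control, 2.46% in all, and vehicle 2 higher and 2 lower (0.0111% each, 0.0221% in all). These comparisons share their control libraries, and a gene called in one alone is not shown to differ between them.

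Chi3l1, Nog and Serpine3 were the interactions with the smallest unadjusted p that vehicle carried clearly. Chi3l1, a secreted chitinase-like protein of activated macrophages and astrocytes, stood at 177, 212, 269, 275 and 301 CPM in nanoceria plus light and 299.6, 153, 175 and 183 in nanoceria, and at 278, 456, 167, 248 and 199 in vehicle plus light and 69.1, 135, 95.9, 44.8 and 44.7 in vehicle. Control retinas had 17.8 to 33.9 CPM. All nanoceria libraries lay above all vehicle libraries and overlapped with the light-exposed groups. Light raised Chi3l1 after vehicle (1.79 ± 0.29, adjusted p = 5.52e-05) while the change after nanoceria was 0.28 ± 0.30. The interaction was -1.51 ± 0.41 (unadjusted p = 0.000999, adjusted p = 0.99999). Nanoceria against control was called for Chi3l1 (2.76 ± 0.31, adjusted p = 1.14e-05), and vehicle against control was 1.38 ± 0.29 (adjusted p = 0.0852).

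Nog encodes noggin, a secreted inhibitor of bone morphogenetic proteins. It stood at 19.5, 9.82, 18.6, 12.6 and 9.06 CPM in nanoceria plus light, 13.2, 4.09, 21.7 and 5.48 in nanoceria, 12.2, 18.2, 10.3, 9.48 and 10.1 in vehicle plus light and 2.68, 3.39, 2.01, 3.14 and 2.97 in vehicle, with 6.15 to 10.1 in control. The vehicle libraries were lower than those of all the other groups, control included, and the nanoceria libraries fell into 2 high and 2 low. Light raised Nog after vehicle (2.08 ± 0.35, adjusted p = 7.69e-05), and its interaction was -1.76 ± 0.48 (-2.75 to -0.77). Without nanoceria 3 it was -1.21. Serpine3, of the serpin family of protease inhibitors, had 39.1, 39.6, 11.3, 39.1 and 21.1 CPM in nanoceria plus light, 19.1, 2.09, 47.1 and 6.81 in nanoceria, 52.02, 65.6, 17.5, 42.8 and 16.9 in vehicle plus light and 1.51, 9.03, 1.38, 0.807 and 0.669 in vehicle. Its interaction was -3.17 ± 0.93, with the vehicle range overlapped by nanoceria 2 and 5. It was -2.16 without nanoceria 3 and -4.49 without vehicle 2. Vwf, the von Willebrand factor of vessel walls, stood at 75.2, 77.1, 79.8, 57.1 and 40.7 CPM in nanoceria plus light, 74.9, 66.9, 64.8 and 64.1 in nanoceria, 72.6, 77.7, 79.6, 76.6 and 57.6 in vehicle plus light and 36.5, 63.97, 39.8, 34.1 and 35.3 in vehicle. All vehicle libraries were lower than all nanoceria libraries, and the interaction was -0.83 ± 0.25 (unadjusted p = 0.00211).

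**Figure D4:**
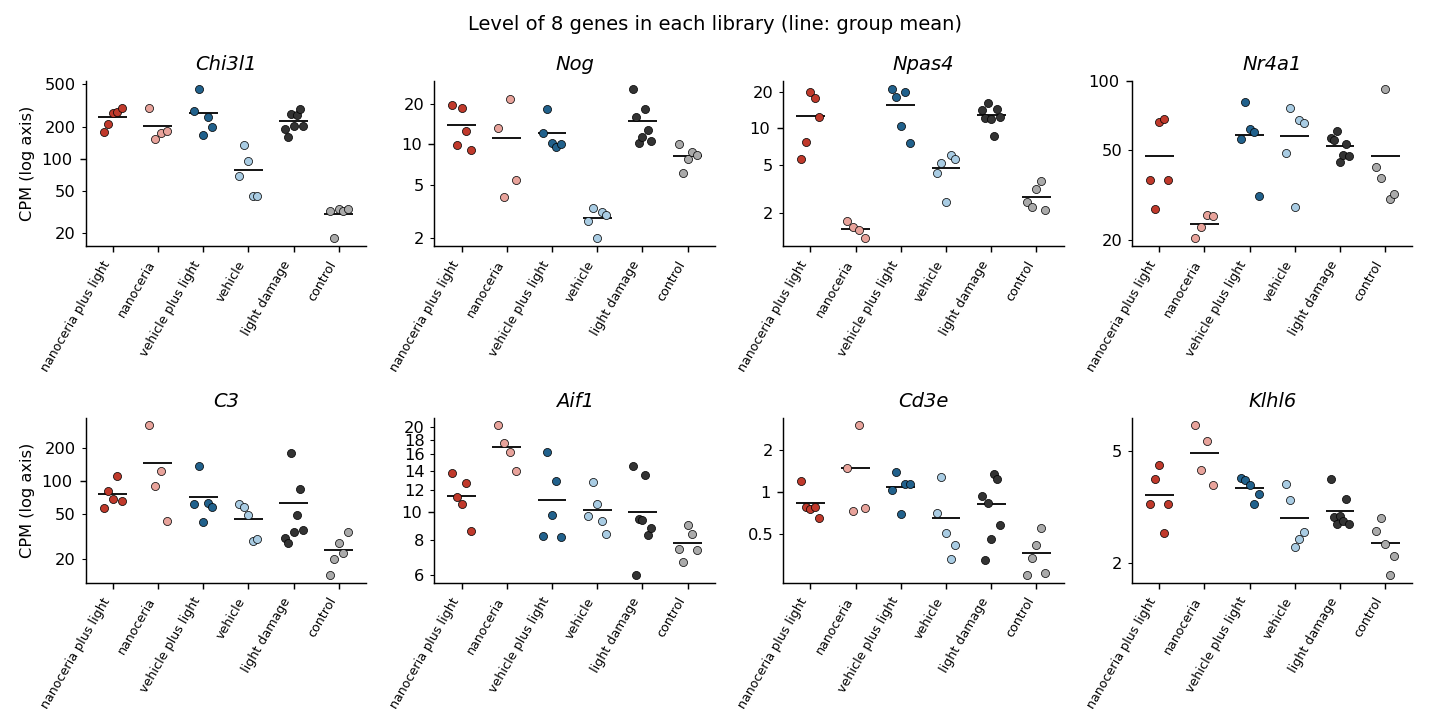
Level of 8 genes (CPM, log axis) in each library of the 6 groups, with group means as lines. Chi3l1, C3, Aif1, Cd3e and Klhl6 are higher in nanoceria than in vehicle by group mean, Npas4 and Nr4a1 are lower there with no overlap, Nog is lowest in vehicle, and the 2 light-exposed injected groups overlap in all 8.

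Immune cell genes had negative median interactions. The 19 tested lymphocyte genes had a median interaction of -1.05 and all 19 were negative. The 15 homeostatic microglia genes had a median of -0.61 with 14 negative, the 28 genes of activated phagocytes -0.58 with 24 negative, and the 19 complement genes -0.43 with 14 negative, where all genes had a median of 0.02 and 7705 of 18094 were negative. None of these genes was called. Unadjusted p under 0.05 was reached by 10 lymphocyte, 6 microglia, 10 phagocyte and 2 complement genes (1.65% of all genes in that direction). Single libraries moved these counts: 2 lymphocyte genes passed without nanoceria 3 and 6 without nanoceria plus light 2. Of the microglia genes 1 passed without nanoceria 1 or vehicle plus light 2, 2 without nanoceria plus light 5, and 3 without nanoceria 2, vehicle 7 or nanoceria plus light 4. Of the phagocyte genes 2 passed without vehicle plus light 2, 4 without nanoceria 1 or nanoceria plus light 5, and 6 without vehicle 4 or nanoceria plus light 2. Of the complement genes 0 passed without nanoceria 1, vehicle 4, vehicle 7 or vehicle plus light 2, 1 without nanoceria 3 or nanoceria plus light 5, 4 without vehicle plus light 6, 5 without nanoceria 5 and 7 without vehicle 2. With near-identical pairs summed 7 lymphocyte, 2 microglia, 6 phagocyte and 0 complement genes passed. The medians kept their sign, from -1.21 to -0.71 for lymphocytes, from -0.73 to -0.45 for microglia and from -0.70 to -0.31 for phagocytes (-0.31 without vehicle plus light 2) and from -0.55 to -0.22 for complement (-0.22 without vehicle plus light 2, -0.27 without nanoceria plus light 5) when each library was left out.

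The levels behind these medians differ between the groups without light. Medians of nanoceria minus vehicle were 0.84 for lymphocyte, 0.55 for microglia, 0.50 for phagocyte and 0.35 for complement genes, while under light they were -0.15, -0.07, -0.05 and 0.08, in the same order. Without light, an unadjusted p under 0.05 was reached in the higher direction by 14 lymphocyte, 9 microglia, 11 phagocyte and 8 complement genes (3.44% of all genes), and in the lower direction by 0 of them. Against control, nanoceria had 6 lymphocyte, 9 microglia, 16 phagocyte and 7 complement genes called higher (1.73% of all genes). Vehicle had 0 in each of these lists (0.0111% of all genes). The medians against control were positive after both injections. In the same order they were 1.19, 0.96, 1.03 and 0.74 for nanoceria, and 0.28, 0.38, 0.45 and 0.32 for vehicle. Aif1, which codes for Iba1, a marker of microglia, stood at 13.8, 11.3, 10.7, 12.7 and 8.58 CPM in nanoceria plus light, 20.2, 17.5, 16.3 and 13.9 in nanoceria, 8.23, 16.2, 9.79, 12.8 and 8.19 in vehicle plus light and 9.72, 12.8, 10.7, 9.33 and 8.35 in vehicle. All nanoceria libraries lay above all vehicle libraries, and the light-exposed groups overlapped. The interaction of Aif1 was -0.69 ± 0.29 (unadjusted p = 0.023), and nanoceria was above control by 1.13 ± 0.21 (adjusted p = 0.00453).

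Light lowered some microglia genes after nanoceria, and some in uninjected eyes. P2ry12, the purine receptor of resting microglia, changed by -1.30 after nanoceria and -0.49 after vehicle, Csf1r, the receptor that keeps microglia alive, by -0.54 and 0.01, and Trem2, a lipid receptor of phagocytes, by -1.53 and -0.87, in that order. All 3 were called after nanoceria, and of these Trem2 was also called after vehicle. Of the 15 microglia genes, 0 rose and 5 fell after nanoceria (5.78% of all genes fell), and 1 rose and 1 fell after vehicle (9.67% and 7.17%). In uninjected eyes 2 rose and 4 fell (11.9% and 10.6% of all genes). Of the 28 phagocyte genes, 4 rose after nanoceria (8.15% of all genes), 11 after vehicle (9.67%) and 20 in uninjected eyes (11.9%). Ptprc, the CD45 antigen of all white blood cells, had a light change of -0.17 after nanoceria and 0.79 after vehicle. Ncf1, a subunit of the oxidase with which phagocytes make superoxide, stood at 12.3, 12.2, 10.5, 11.6 and 9.599 CPM in nanoceria plus light, 18.6, 13.4, 15.8 and 10.4 in nanoceria, 10.2, 19.3, 8.47, 11.7 and 9.29 in vehicle plus light and 8.75, 10.98, 8.41, 7.11 and 7.21 in vehicle. Its interaction was -0.85 ± 0.28 (unadjusted p = 0.00491) and its difference under light -0.07 ± 0.19.

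C3 is the central complement component. It stood at 57.7, 80.8, 68.97, 111 and 66.6 CPM in nanoceria plus light, 318, 90.6, 124 and 43.4 in nanoceria, 61.6, 136, 42.8, 63.7 and 57.9 in vehicle plus light and 62.7, 58.9, 49.2, 28.7 and 29.99 in vehicle. Nanoceria 1 was the highest of the 19, and nanoceria 5 lay inside the vehicle range. The interaction was -1.56 ± 0.69 (unadjusted p = 0.0313, interval -2.97 to -0.15) and -0.81 without nanoceria 1. Cd3e, a chain of the T-cell receptor complex, stood at 1.198, 0.771, 0.757, 0.783 and 0.652 CPM in nanoceria plus light, 1.47, 0.731, 2.995 and 0.763 in nanoceria, 1.03, 1.38, 0.689, 1.14 and 1.14 in vehicle plus light and 0.706, 1.27, 0.509, 0.327 and 0.413 in vehicle. Nanoceria 3 was at more than any other library, and nanoceria and vehicle overlapped. The interaction of Cd3e was -1.57 ± 0.57 with all libraries and -0.98 without nanoceria 3. The summed lymphocyte list made up only 20.4 to 55.7 CPM in the 19 libraries, so these genes were measured at a low level. Beside them, the 4 tested red cell genes, a sign of blood in a sample, summed to 40.9 to 202 CPM in nanoceria plus light, 54.5 to 144 in nanoceria, 45.5 to 361 in vehicle plus light and 39.1 to 120 in vehicle, with the highest sum of the nanoceria group also in nanoceria 3, and their part in the result was not tested.

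Klhl6, a protein of B cells and vessel walls, and Fyb, an adaptor of T cells and myeloid cells, were among the 10 lower interactions with the smallest unadjusted p. Klhl6 stood at 3.23, 3.97, 4.45, 2.55 and 3.24 CPM in nanoceria plus light, 6.17, 4.26, 5.42 and 3.78 in nanoceria, 4.002, 3.93, 3.79, 3.23 and 3.502 in vehicle plus light and 3.81, 3.36, 2.27, 2.43 and 2.58 in vehicle. Fyb stood at 12.7, 9.19, 10.7, 8.18 and 7.94 CPM in nanoceria plus light, 14.4, 10.9, 15.2 and 8.66 in nanoceria, 9.38, 15.9, 10.2, 9.397 and 9.34 in vehicle plus light and 7.78, 9.03, 6.5996, 6.92 and 6.503 in vehicle. Nanoceria and vehicle overlapped in both, through nanoceria 5. Their interactions were -0.84 ± 0.24 for Klhl6 and -0.90 ± 0.25 for Fyb. Both were called above control in nanoceria, Klhl6 by 1.06 ± 0.17 and Fyb by 1.26 ± 0.18. Gimap9, a GTPase of lymphocytes, and Abi3, an actin regulator of microglia, had interactions of -0.87 ± 0.27 and -0.70 ± 0.23. The 17 endothelial and pericyte genes had a median interaction of -0.27, and a median of 0.33 between nanoceria and vehicle. Fam167b, Ednra, the endothelin receptor of vessel muscle, and Scube1, a secreted protein of vessels, were carried clearly by nanoceria, and all 3 fell with light after nanoceria. Ednra stood at 13.5, 11.1, 17.9, 12.9 and 9.25 CPM in nanoceria plus light, 16.5, 21.9, 18.4 and 20.98 in nanoceria, 15.9, 13.99, 12.1, 12.8 and 13.5 in vehicle plus light and 13.4, 16.9, 12.1, 9.798 and 10.5 in vehicle, which leaves nanoceria above the rest but for an overlap with nanoceria plus light 3 and vehicle 2. Its interaction was -0.71 ± 0.23, that of Fam167b -0.81 ± 0.25 and that of Scube1 -0.83 ± 0.28.

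**Figure D5:**
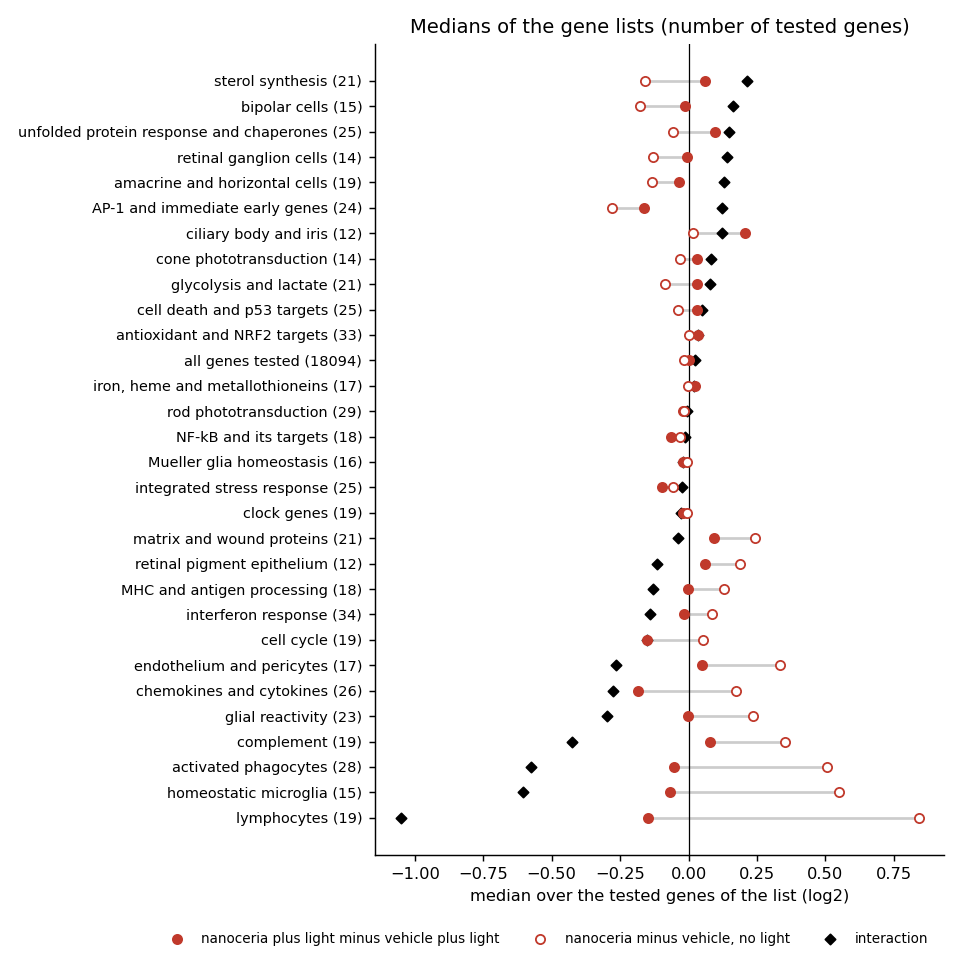
Median over the tested genes of each list of the interaction (diamonds), of nanoceria minus vehicle without light (open circles) and of nanoceria plus light minus vehicle plus light (filled circles), in log2. For lymphocytes, microglia and phagocytes the open circles lie at 0.84, 0.55 and 0.50 and the filled circles near 0, and the lens, blood and Y-linked lists are not drawn.

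Npas4, Nr4a1 and Egr4, which neurons switch on with activity, had positive interactions, none of them called. Npas4, a transcription factor induced by calcium entry, had the smallest unadjusted p among higher interactions. It stood at 5.57, 7.75, 19.96, 17.6 and 12.3 CPM in nanoceria plus light, 1.704, 1.55, 1.45 and 1.23 in nanoceria, 21.2, 18.1, 10.4, 19.995 and 7.61 in vehicle plus light and 4.29, 5.16, 2.48, 6.05 and 5.58 in vehicle, with 2.097 to 3.66 in control. The nanoceria libraries were below those of every other group, control included, and the light-exposed groups overlapped. Light raised Npas4 by 3.09 ± 0.35 after nanoceria and by 1.71 ± 0.30 after vehicle, both called, and the interaction was 1.38 ± 0.44 (unadjusted p = 0.00385, adjusted p = 0.99999). Leaving out each library gave 1.15 to 1.57.

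Nr4a1, an orphan nuclear receptor of the same immediate early class, stood at 36.9, 27.4, 66.1, 68.3 and 36.6 CPM in nanoceria plus light, 20.3, 22.8, 25.6 and 25.4 in nanoceria, 55.4, 80.9, 61.5, 59.8 and 31.3 in vehicle plus light and 48.2, 76.5, 27.8, 67.5 and 65.8 in vehicle. Nanoceria lay below vehicle without overlap, and light raised Nr4a1 after nanoceria (0.999 ± 0.31, adjusted p = 0.0316) and changed it by 0.02 ± 0.29 after vehicle, with an interaction of 0.98 ± 0.42 (unadjusted p = 0.0282). Egr4, a zinc finger factor of neurons, stood at 0.0773, 0.116, 0.2399, 0.206 and 0.0583 CPM in nanoceria plus light, 0.142, 0.165, 0.0758 and 0.0726 in nanoceria, 0.262, 0.278, 0.203, 0.275 and 0.155 in vehicle plus light and 0.488, 0.666, 0.269, 0.469 and 0.405 in vehicle. Nanoceria again lay below vehicle without overlap, with a difference of -2.02 ± 0.46 (adjusted p = 0.227), and the interaction of Egr4 was 1.28 ± 0.60. The Wald test of DESeq2 called the difference without light for Egr4 (adjusted p = 0.00936), and also for Npas4 (adjusted p = 0.000836) and Nr4a1 (adjusted p = 0.0268). None of the 3 was called in edgeR. Egr4 was measured at a low level, with a mean log2 CPM of -1.88. After vehicle it was mostly lower with light than without, and after nanoceria the groups with and without light overlapped. Over the 24 AP-1 and immediate early genes the median interaction was 0.12, and -0.08 to 0.31 when each library was left out, lowest without nanoceria plus light 4. Between nanoceria and vehicle their median was -0.28, with 6 lower at an unadjusted p under 0.05 (2.21% of all genes), namely Fosb, Egr3, Egr4, Nr4a1, Nr4a2 and Arc. Most of the list rose with light in both arms, 17 of 24 after nanoceria (8.15% of all genes) and 15 after vehicle (9.67%).

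The promoters of Nr4a1 and Egr4 are printed because both genes were lower in nanoceria than in vehicle without overlap and are textbook targets of CREB, the factor that couples calcium and cyclic AMP to transcription. Capitals mark CGTCA or its reverse complement TGACG, the core that the CRE, the site of CREB, is built of. Sequences run 5′ to 3′ on the gene's strand from 250 bases before to 50 after the start, from RefSeq on build GRCr8.
Nr4a1 (chr7:134259888-134260187, + strand): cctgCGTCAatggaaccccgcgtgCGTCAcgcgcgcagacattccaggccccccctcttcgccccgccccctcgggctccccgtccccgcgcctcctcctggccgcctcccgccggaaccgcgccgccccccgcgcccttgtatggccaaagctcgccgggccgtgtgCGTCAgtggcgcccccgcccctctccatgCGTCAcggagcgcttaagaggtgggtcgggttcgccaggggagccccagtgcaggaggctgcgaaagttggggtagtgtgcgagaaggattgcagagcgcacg
Egr4 (chr4:119607768-119608067, - strand): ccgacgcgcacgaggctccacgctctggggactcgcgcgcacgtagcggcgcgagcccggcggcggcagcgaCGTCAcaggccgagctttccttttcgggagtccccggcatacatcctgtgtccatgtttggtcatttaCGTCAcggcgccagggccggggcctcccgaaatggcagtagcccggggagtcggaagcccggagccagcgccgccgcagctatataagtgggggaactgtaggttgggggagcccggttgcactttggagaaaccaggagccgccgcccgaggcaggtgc

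These windows hold 4 matches in Nr4a1 and 2 in Egr4, on either strand. Of 33469 rat promoters of the same length, 21.2% hold at least 1 match, 4.96% at least 2 and 0.236% at least 4. The window of Npas4, which was also lower in nanoceria than in vehicle without overlap, holds none. Those of Fosb, Egr3, Nr4a2 and Arc were not looked at singly, so the matches describe Nr4a1 and Egr4 alone. A match is a run of letters and shows no binding.

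Few interactions were carried by the light-exposed groups. Zwint, a kinetochore protein that is abundant in neurons, stood at 494, 430.4, 351, 729.6 and 886 CPM in nanoceria plus light, 744, 654, 622 and 772 in nanoceria, 405, 418, 327, 307 and 416 in vehicle plus light and 705, 914, 799, 657 and 660.1 in vehicle, with 706 to 958 in light damage. Vehicle plus light lay below the groups without light and below light damage, and nanoceria plus light 3 overlapped with it. Zwint fell with light after vehicle (-0.995 ± 0.20, adjusted p = 0.000586) and changed by -0.27 ± 0.21 after nanoceria, with an interaction of 0.72 ± 0.29 (unadjusted p = 0.0175). Wif1, a secreted inhibitor of Wnt proteins, stood at 3.14, 3.97, 5.15, 5.89 and 2.46 CPM in nanoceria plus light, 6.39, 4.35, 5.63 and 4.69 in nanoceria, 2.403, 1.93, 3.18, 2.196 and 3.304 in vehicle plus light and 7.12, 4.63, 6.899, 4.37 and 4.16 in vehicle. It fell after vehicle (a change of -1.06 ± 0.23), and its interaction was 0.71 ± 0.34. Here the light damage libraries, at 2.35 to 3.46 CPM, overlapped with vehicle plus light. Nemp1, a protein of the inner nuclear membrane, was the third, with an interaction of -0.43 ± 0.20.

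Nanoceria plus light carried Crot, Bckdhb and Bpifa6 clearly, and none of these interactions was called. Crot, a carnitine transferase of peroxisomes, stood at 180.2, 111, 175, 86.1 and 235 CPM in nanoceria plus light, 72.3, 76.2, 86.2 and 82.9 in nanoceria, 91.999, 102, 183, 92.5 and 99.2 in vehicle plus light and 102, 79.4, 82.5, 80.7 and 82.7 in vehicle. The 2 light-exposed groups overlapped, and the interaction of 0.58 ± 0.28 was 0.39 without nanoceria plus light 5. Bckdhb, a subunit of the enzyme that breaks down branched-chain amino acids, had an interaction of 0.31 ± 0.15. Bpifa6, of a family of secreted lipid-binding proteins, rests on 1 library: nanoceria plus light 4 had 176 CPM and the other 18 injected libraries at most 2.72. Chaperones of the endoplasmic reticulum had smaller positive interactions. Calr, calreticulin, stood at 804, 642, 791, 841 and 698 CPM in nanoceria plus light, 594, 576, 646 and 622 in nanoceria, 604, 707, 604, 766 and 675 in vehicle plus light and 639, 692, 683, 645 and 649 in vehicle. It rose with light after nanoceria (0.31 ± 0.09, adjusted p = 0.0229) and changed by 0.02 ± 0.09 after vehicle, with an interaction of 0.29 ± 0.13. Hsp90b1, a chaperone of the same compartment, had an interaction of 0.30 ± 0.15. Of 25 genes of the unfolded protein response, 16 rose and 1 fell after nanoceria (8.15% and 5.78% of all genes), and 8 rose and 1 fell after vehicle (9.67% and 7.17%). Their median interaction was 0.15, with 0.05 without nanoceria plus light 4, 0.23 without nanoceria plus light 2 and 0.24 without vehicle plus light 4.

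All 21 genes of sterol synthesis had a positive interaction, with a median of 0.21, and the sign of the median was the same under every alternative. After vehicle 8 of them fell with light (7.17% of all genes), and after nanoceria 0 did (5.78% of all genes). Between nanoceria and vehicle without light all 21 were lower, with a median of -0.16, while under light 16 were higher, with a median of 0.06. Idi1, an isomerase of the pathway, stood at 53.3, 38.96, 63.2, 47.97 and 57.95 CPM in nanoceria plus light, 49.7, 47.9, 54.8 and 53.1 in nanoceria, 48.3, 43.6, 33.9, 44.9 and 55.7 in vehicle plus light and 70.1, 47.9, 62.1, 61.3 and 61.3 in vehicle. The groups overlapped, and the interaction was 0.44 ± 0.17 (unadjusted p = 0.0151). Against control, 6 sterol genes were called lower in nanoceria (0.73% of all genes) and 0 in vehicle (0.0111% of all genes). All 21 had a negative difference from control after both injections, with a median of -0.40 for nanoceria and -0.25 for vehicle.

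The remaining higher interactions with the smallest unadjusted p were small. Cmtr2, which methylates messenger RNA caps, had 0.30 ± 0.10, Mad2l1bp, which silences the spindle checkpoint, 0.27 ± 0.09, Tob1, which slows cell division, 0.34 ± 0.12, and Numa1, a spindle protein, 0.23 ± 0.08. Rimklb, which joins glutamate to N-acetylaspartate, had 0.25 ± 0.09, Arid1b, of a chromatin remodelling complex, 0.18 ± 0.07, and Bach2, a transcriptional repressor, 0.51 ± 0.19. Cmtr2 stood at 13.1 to 16.6 CPM in nanoceria plus light, 14.1 to 15.1 in nanoceria, 13.4 to 17.2 in vehicle plus light and 15.9 to 19.9 in vehicle, so that its nanoceria and vehicle ranges did not overlap. Neuron lists showed small positive medians: 0.16 for 15 bipolar cell genes, 0.13 for 19 amacrine and horizontal cell genes and 0.14 for 14 ganglion cell genes, each with 0 genes at an unadjusted p under 0.05. Müller glia genes of the resting state had a median of -0.02 over 16 genes.

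Lens genes had the largest median interaction, 2.02 over 19 genes, all positive and none called. The median was -0.50 with limma-voom, 0.45 with the lens sum as a covariate, 1.10 without vehicle 1, 1.24 without nanoceria plus light 4 and 3.61 without nanoceria 1. Lens is not retina, and single libraries hold the highest values, but the whole vehicle group was high. Vehicle carried 14 of the 19 genes. All 19 were above control in vehicle, with a median of 2.40, against 0.70 in nanoceria. With light 4 fell after vehicle (7.17% of all genes). Lens counts were at least 0.499% in every vehicle library (median 1.01%), with medians of 0.255% in nanoceria and 0.273% in control. The cause was not tested. Cryga, a crystallin of lens fibres, stood at 4.01, 14.6, 1.11, 36.6 and 2.87 CPM in nanoceria plus light, 30.3, 1.699, 0.7204 and 5.95 in nanoceria, 4.79, 0.902, 2.24, 2.31 and 1.64 in vehicle plus light and 135, 2.98, 10.5, 2.53 and 2.603 in vehicle. An unadjusted interaction p under 0.05 was reached by 5 lens genes (0.641% of all genes in that direction). The number was 0 without vehicle 1 or nanoceria plus light 4, and 16 without nanoceria 1. With the lens sum as a covariate the interaction of nanoceria and light had 0 calls, as with a term for sex.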

How the data were processed

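Reads of 150 bp, in pairs, came from polyA RNA of retina. Per the submitters' processing notes, the tools were Trimmomatic 0.39, STAR 2.7.9a, featureCounts of Subread 2.0.1, DESeq2 1.30.1 and R 4.0, on build rn6. The strand setting is not given in the sources used here. The deposited values are raw counts per gene, whole numbers that the authors had not scaled. Genes left out by the low count filter (filterByExpr, minimum count 10, minimum total 15) were 14529 of 32623.

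All 31 libraries entered 1 fit with edgeR 4.0.16 in R 4.3.3 (robust quasi-likelihood test, TMM scaling, 1 coefficient per group, no covariate). P-values were adjusted by Benjamini-Hochberg over the 18094 genes, and unless another tool is named a p or SE comes from this fit. CPM of single genes use the TMM library sizes, sums over a list use the total counts, and log2 CPM in scores use a prior count of 2. The fit was tested on simulated counts, and the carrying rule on values set by hand. The labels do not tie replicate numbers to animals or days.

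Named genes were, for the interaction, the 10 of each direction with the smallest unadjusted p (mean log2 CPM of at least 1), the 3 with the smallest p that each group carries clearly, the 2 of each list with the smallest p, and 15 light damage genes. Results for 1 further gene are not reported here, and the rod list was computed without it. P2ry12, Csf1r, Trem2, Ptprc, Fosb, Egr3, Nr4a2 and Arc were added after their values were seen. The comparisons, members and lists were chosen with earlier results of these data known. Alternatives were library size alone, DESeq2 (1.42.0) size factors, no filter, the 4 injected groups alone, the Wald test of DESeq2, limma-voom (limma 3.58.1) with quality weights, a replicate block, terms for sex and for lens, near-identical pairs summed, and each library left out.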

Additional observations from a re-analysis of the deposited data

Results flagged for a closer look

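In groups of 4 or 5 libraries, 19 of 208 sets of values had a highest or lowest library set apart from the rest by Dixon's test at 95%, where chance gives about 10. Vehicle 1 was apart in 5 of them: Cryga at 135 CPM (2.53 to 10.5 in the other vehicle libraries), Gfap at 346 (49.1 to 132), Sod2 at 133 (107 to 110.0), Mt2A at 26.4 (12.4 to 15.7) and Crot at 102 (79.4 to 82.7). Vehicle 2 was apart in Serpine3 at 9.03 CPM (0.669 to 1.51), Vwf at 64.0 (34.1 to 39.8) and Scube1 at 19.7 (15.6 to 16.3). Vehicle 3 was apart in Bpifa6 at 2.72 CPM (0.0109 to 0.0768).

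Vehicle plus light 2 was apart in C3 at 136 CPM (42.8 to 63.7 in the other libraries of its group) and in Fyb at 15.9 (9.34 to 10.2). Vehicle plus light 3 was apart in Crot at 183 CPM (92.0 to 102) and Bpifa6 at 1.11 (0.0157 to 0.122), and vehicle plus light 6 in Mad2l1bp at 12.3 (11.1 to 11.3) and Arid1b at 140.2 (124 to 128). Nanoceria plus light 1 was apart in Numa1 at 241 CPM (203 to 212) and Cd3e at 1.198 (0.652 to 0.783), nanoceria plus light 4 in Bpifa6 at 176 (0 to 0.332), and nanoceria 1 in Bckdhb, which was low there at 22.3 (24.5 to 24.9).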

How the results depend on the processing

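The interaction gave 0 calls in every edgeR alternative, limma-voom and every fit with a library left out, and 1 with DESeq2. The 0 calls under light became 4 with DESeq2. The 0 calls without light became 40 with DESeq2, 1493 with limma-voom, and 0 to 3 when each library was left out (1 without nanoceria 2, 2 without nanoceria 5, 3 without vehicle 2). Calls for light were 1685 to 3052 after nanoceria and 2356 to 3186 after vehicle with a library left out, and 5219 after vehicle with limma-voom. The difference in light score ranged from -0.50 to -0.18 with a library left out. A ratio of 3 left 8 genes carried clearly by nanoceria plus light, and a ratio of 1.5 gave 24 for vehicle plus light. Genes at an unadjusted interaction p under 0.05 numbered 645 without the filter and 1132 with limma-voom. Of the 415, 72.0% were lower, against 80.2% with the size factors of DESeq2 (88 higher, 356 lower) and 85.3% with library size alone (65 higher, 378 lower). Library size alone gave 1480 higher and 671 lower calls for light after nanoceria.

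The replicate block gave 0 calls in the interaction, 2272 for light after nanoceria and 2771 for light after vehicle. Libraries that share a number in different groups correlated from -0.14 to 0.38 (median 0.14, 13 of 22 pairs over 0.1), and libraries with other numbers had a median of -0.018 (18 of 113 pairs over 0.1). Not every same-number pair was over 0.1. The library names carry running numbers that go in blocks by replicate number, while no label ties a replicate number to an animal or day. Whether libraries of the same number share a step of processing cannot be told from the labels. The main fit has no block, so the block is given here as an alternative. Under the block 6 lymphocyte and 6 phagocyte genes had an unadjusted p under 0.05, in place of 10 each, and 0 chemokine and 0 immediate early genes, in place of 2 each.

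Some uncalled interactions changed sign. With limma-voom Opn1sw was -0.21, and with pairs summed as well Hmox1 was 0.0046, Stat3 0.074 and Trib3 -0.011. The block gave Mt2A -0.036. The interaction of Sod2 was -0.00211 with the size factors and -0.00212 with the Wald test of DESeq2, -0.0202 with library size alone and -0.000125 with the 4 injected groups alone. With each library left out the interaction ran from -0.24 to 0.048 for Fgf2, -0.46 to 0.059 for Hmox1, -0.17 to 0.60 for Lif, -0.22 to 0.36 for Mt2A, -1.41 to 0.36 for Ptx3, -0.10 to 0.12 for Sod2. The causes were not tested. An SE of 0.21 in the median gene limits what the interaction could show.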

Other observations

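Of 19 clock genes, which set the daily rhythm, 4 rose and 5 fell after nanoceria (13.9% of all genes called), and 4 rose and 6 fell after vehicle (16.8%). Npas2, a partner of the clock factor Bmal1, rose after nanoceria (0.73 ± 0.20) and changed by 0.07 ± 0.18 after vehicle, with an interaction of 0.66 ± 0.27 (unadjusted p = 0.0201, not called). Interferon response genes rose in both arms, 14 of 34 after nanoceria (8.15% of all genes) and 19 after vehicle (9.67%), with a median interaction of -0.14, which was 0.01 without nanoceria 3 or nanoceria plus light 2. Of 25 genes of cell death and p53 signalling, 6 rose after nanoceria (8.15% of all genes) and 9 after vehicle (9.67%), and all 25 had a positive light change in both arms. Casp4, an inflammatory caspase, had an interaction of -0.52 ± 0.21. Of 25 genes of the integrated stress response, 15 rose and 1 fell after nanoceria (8.15% and 5.78% of all genes), and 15 rose and 2 fell after vehicle (9.67% and 7.17%). Glycolysis genes fell, 6 of 21 after nanoceria (5.78% of all genes) and 11 after vehicle (7.17%).

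Of the 18 MHC and antigen processing genes, RT1-Ba and RT1-Da, chains of MHC class II, had interactions of -0.67 ± 0.32 and -0.66 ± 0.32, and as members of a multigene family they may share reads. The other lists had median interactions of -0.01 for NF-kB targets, 0.02 for iron, heme and metallothionein genes, -0.04 for matrix genes, -0.15 for cell cycle genes, -0.12 for pigment epithelium genes, 0.12 for ciliary body and iris genes, -0.58 for 4 red cell genes and -0.53 for 4 Y-linked genes, with 0 called in each.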
